A study of Rattus norvegicus with 30 samples.

Results

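Messenger RNAs of the creatine kinase, adenine nucleotide translocator and voltage-dependent anion channel genes were followed in the left ventricle of the rat over 6 protocols. A probe set was taken as a member when the platform's probe-to-gene table gave it 1 of 9 symbols (Ckm, Ckmt2, Ckb, Ak1, Slc25a4, Slc25a5, Vdac1, Vdac2 or Vdac3). This chose 9 of 8799 probe sets, which stood for 6 of 4736 genes: Ckm (M10140_at), Ckb (M57664_at and M57664_g_at), Ckmt2 (X59736mRNA_at and X59736mRNA_g_at), Slc25a4 (D12770_s_at), Slc25a5 (D12771_s_at) and Vdac1 (AF048828_at and AF048828_g_at). Ak1, Vdac2 and Vdac3 were not analysed here. All 9 probe sets passed the filter on low signal.

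Total RNA of rat heart was measured on 30 Affymetrix arrays, 5 for each protocol, and the labels call the 5 arrays of a protocol biological replicates. The protocols were ischemic preconditioning (IPC), anesthetic preconditioning (APC), ischemia (ISCH), the trigger of ischemic preconditioning (IPC_TRI), the trigger of anesthetic preconditioning (APC_TRI) and control (CTL). The labels name a comparison of ischemia and reperfusion with pharmacological and ischemic preconditioning as the purpose. The labels state no strain, sex or age of the rats, no anesthetic, no duration and no time of sampling, so the groups are known by these names alone. The tissue is a mixture of cells, and fewer cells of a type and less RNA per cell cannot be told apart in it.

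Creatine kinases move phosphate between ATP and creatine. In the heart, the mitochondrial form Ckmt2 sits in the space between the mitochondrial membranes and makes phosphocreatine from the ATP that leaves the matrix, and the cytosolic forms Ckm and Ckb return that phosphate to ADP near the sites of use. Slc25a4 (ANT1, the main form of heart and skeletal muscle) and Slc25a5 (ANT2, a form of growing and other tissues) are inner membrane carriers that exchange matrix ATP for cytosolic ADP. Vdac1 is an outer membrane channel through which nucleotides, creatine and phosphocreatine pass, and a docking site of hexokinase.

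The deposited values are signal intensities scaled by the authors to a common trimmed mean, and signals of different probe sets cannot be compared as levels. Between the lowest and highest of the 30 arrays, rank from the brightest ran from 5 to 72 for Slc25a4, 22 to 82 for Ckm and 57 to 108 for X59736mRNA_g_at of Ckmt2, so 3 member probe sets lay near the top of the scale. The other 6 ranked between 142 and 3260. The highest signal on an array ranged from 31570 to 157066, differed on every array and was above every member, so no common ceiling was seen, although signal can flatten below one. Of the total signal, the top 1% of probe sets by brightness took 37.5% ± 2.34 in IPC_TRI, 34.8% ± 1.24 in APC_TRI, 37.3% ± 4.34 in ISCH, 30.4% ± 2.55 in IPC, 30.02% ± 2.56 in APC and 30.5% ± 3.22 in CTL (SD, n = 5 each). The bacterial spike signal was 12.0 ± 0.611 on the log2 scale in ISCH, against 10.8 ± 0.687 in CTL. The ratio of the 3′ to the 5′ beta-actin probe set was 0.748 ± 0.193 in IPC_TRI and 0.792 ± 0.154 in APC_TRI, against 1.07 ± 0.171 in CTL. Replicate 1 of ISCH stood apart with 44.9% of its signal in the brightest 1%, and replicate 5 of IPC_TRI with the highest median signal, 189.2, and the lowest beta-actin ratio, 0.505. The part of these differences in the results below was examined only with each measure as a covariate. For each contrast of 2 groups, the outcome is given beside a member's result where it ended the call. Covariate outcomes are not given for the tissue markers and the other genes named below. Over all probe sets, calls in IPC_TRI against CTL went from 869 to 152 with the brightest 1% share as covariate. That share ran from 35.60% to 41.55% in IPC_TRI and from 27.80% to 35.56% in CTL, so it and the group are largely confounded. Slc25a4 and Ckm rank high enough to be part of it. A call lost with a covariate that differs between the groups therefore does not show that the group had no effect.

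After quantile normalization, both trigger groups had lower signals than control hearts at Ckmt2, Slc25a5 and the Vdac1 probe set AF048828_at. Of the Ckmt2 probe sets, X59736mRNA_at alone kept both calls on the deposited scale. With the share of the brightest 1% as covariate, which is partly confounded with the group, X59736mRNA_at was the only member still called in either group. Changes are differences of mean log2 signals after quantile normalization, tested with limma over the whole array and called at a Benjamini-Hochberg adjusted p under 0.05. In IPC_TRI against CTL, 6 of the 9 member probe sets fell and 0 rose, beside 16.6% of all 5244 tested probe sets called, 10.1% as lower. On the normalized scale 5 of 9 member probe sets did not overlap CTL, beside 9.48% of all. In APC_TRI against CTL, 4 of 9 fell and 0 rose, beside 8.64% called, 4.92% as lower, and 6 of 9 did not overlap CTL, beside 13.3% of all. Each comparison with CTL in this account uses the same 5 control arrays.

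Ckmt2 gave the smallest p-values of the members in both trigger groups. Its probe set X59736mRNA_at read 3010.9, 2493.1, 2984.7, 3632.9 and 2097.7 in IPC_TRI, against 8568.2, 7150.1, 6257.6, 7580.9 and 6835.4 in CTL. In APC_TRI it read 3418.9, 3043.2, 3524.1, 2950.0 and 2972.9. All 10 trigger arrays lay below all 20 arrays of the other 4 groups, the lowest of which was 4027.2 in ISCH. After normalization the signal fell 2.54-fold in IPC_TRI (log2 change -1.35 ± 0.15 SE, adjusted p = 7.39e-07) and 2.35-fold in APC_TRI (-1.23 ± 0.15, adjusted p = 9.96e-06). By p-value this was the second of the 5244 probe sets in IPC_TRI and the first in APC_TRI. Leaving out any single array kept both calls, with changes from -1.43 to -1.27 in IPC_TRI and from -1.29 to -1.17 in APC_TRI. With the share of the brightest 1% as a covariate both changes were -1.06 and stayed called.

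The other Ckmt2 probe set, X59736mRNA_g_at, shifted far less. It read 15458.4, 18279.1, 14849.8, 15943.8 and 13967.6 in IPC_TRI, against 18539.0, 17910.5, 15492.3, 16771.8 and 16794.8 in CTL. In APC_TRI it read 16334.5, 15011.5, 13786.5, 12713.5 and 15262.4. The deposited signals of both trigger groups overlap those of CTL, while the quantile-normalized ones do not. The normalized signal fell 1.32-fold in IPC_TRI (log2 -0.40 ± 0.10, adjusted p = 0.00844) and 1.36-fold in APC_TRI (-0.44 ± 0.10, adjusted p = 0.00607). Neither call held on the deposited scale, where the log2 changes were -0.13 in IPC_TRI (adjusted p = 0.480) and -0.23 in APC_TRI (adjusted p = 0.208). With the share of the brightest 1% as covariate they were -0.23 in IPC_TRI (adjusted p = 0.291) and -0.34 in APC_TRI (adjusted p = 0.0579), and with beta-actin the IPC_TRI change was -0.36 (adjusted p = 0.0592).

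**Figure D1:**
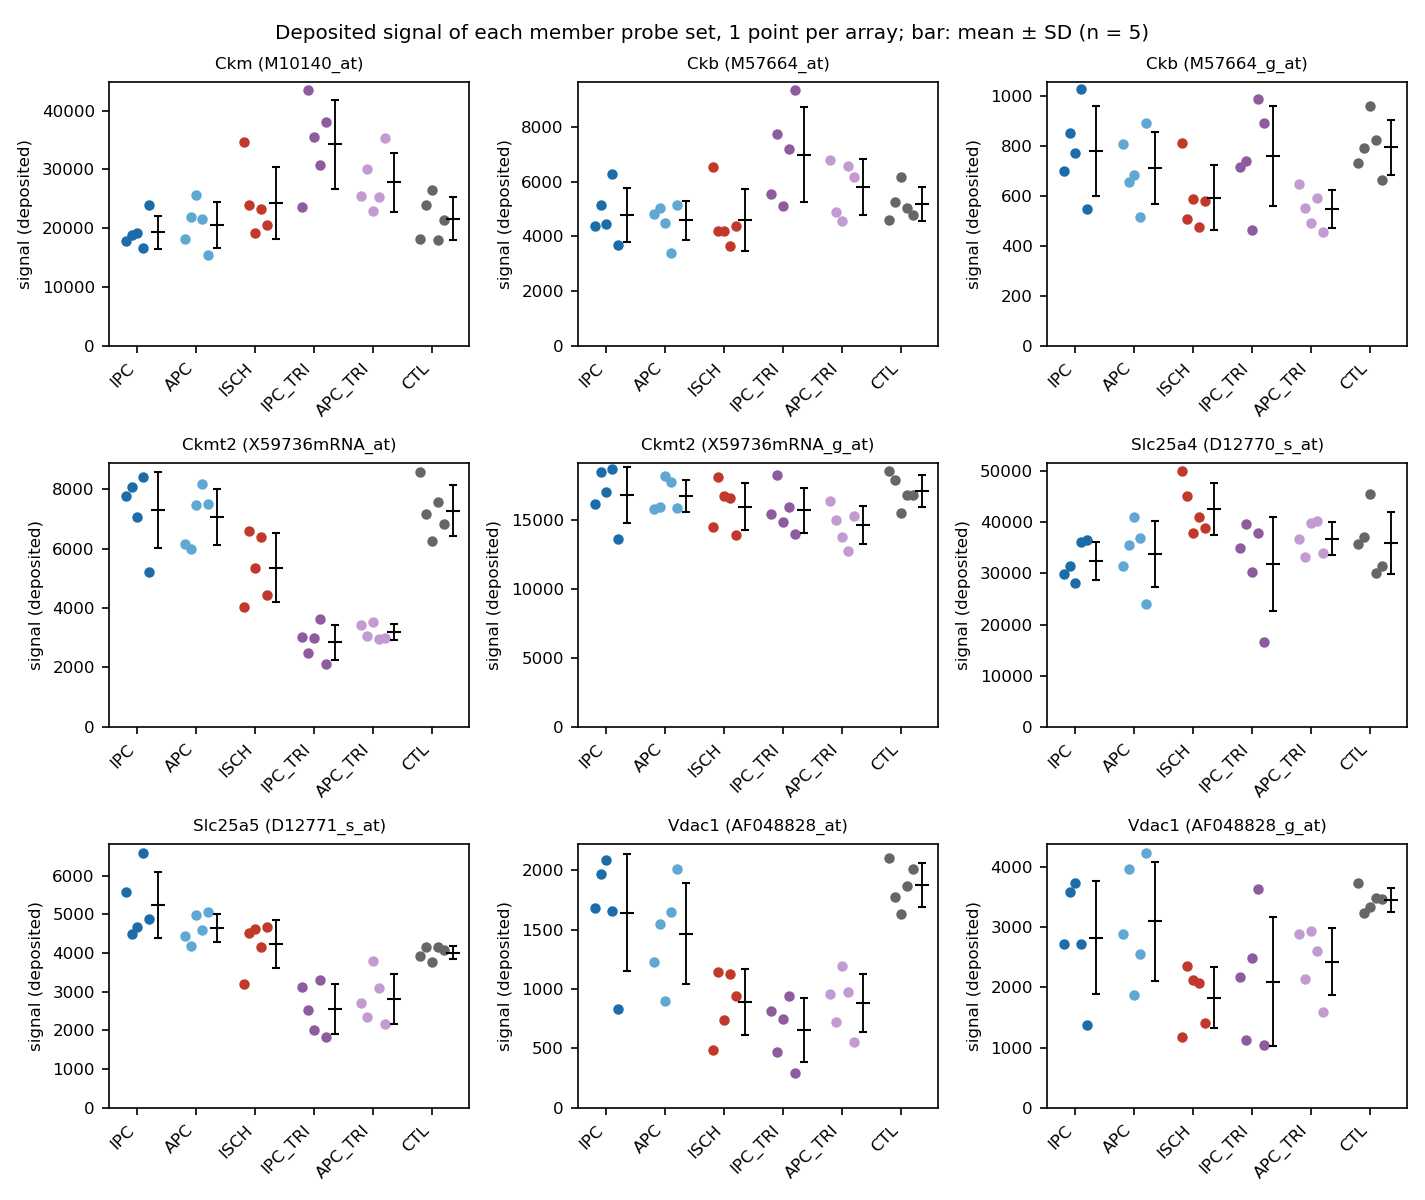
Deposited signal (linear scale, from 0) of each member probe set on each of the 30 arrays, with the mean and SD of the 5 arrays of a group at its right. The 10 trigger arrays of Ckmt2 X59736mRNA_at, at 2097.7 to 3632.9, lie below all others, which is not so for X59736mRNA_g_at of the same gene.

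Vdac1 fell in both trigger groups by its probe set AF048828_at. It read 817.9, 466.7, 747.9, 942.5 and 294.3 in IPC_TRI, against 2102.8, 1775.7, 1629.3, 1865.3 and 2009.6 in CTL. In APC_TRI it read 958.3, 724.1, 1192.3, 976.7 and 556.3. Neither trigger group overlaps CTL. The fall was 3.08-fold in IPC_TRI (log2 -1.62 ± 0.30, adjusted p = 5.63e-04) and 2.15-fold in APC_TRI (-1.10 ± 0.30, adjusted p = 0.0172). The APC_TRI call was lost without APC_TRI 5 (-0.95, adjusted p = 0.0624), with beta-actin as covariate (-1.01, adjusted p = 0.0776) and with the share of the brightest 1% as covariate (-0.71, adjusted p = 0.162). With the brightest 1% covariate the IPC_TRI change was -0.98 (adjusted p = 0.0946).

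Its second probe set, AF048828_g_at, read 2173.1, 1124.2, 2493.7, 3641.3 and 1038.3 in IPC_TRI and 2879.6, 2147.0, 2932.0, 2599.0 and 1592.1 in APC_TRI, against 3740.1, 3229.4, 3329.0, 3486.8 and 3468.0 in CTL. IPC_TRI overlaps CTL through replicate 4, and APC_TRI lies wholly below CTL. It fell 1.76-fold in IPC_TRI (log2 -0.82 ± 0.28, adjusted p = 0.0458) and was not called in APC_TRI (-0.51 ± 0.28, adjusted p = 0.262). The IPC_TRI call was lost when any control array, IPC_TRI 2 or IPC_TRI 5 was left out (adjusted p 0.0627 to 0.162), and with the spike signal (-0.65, adjusted p = 0.117), beta-actin (-0.999, adjusted p = 0.0618) or the share of the brightest 1% (-0.21, adjusted p = 0.767) as covariate.

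Slc25a5 read 3123.9, 2518.7, 2017.7, 3297.7 and 1822.5 in IPC_TRI and 2704.7, 2353.4, 3782.8, 3090.8 and 2162.8 in APC_TRI, against 3919.2, 4150.8, 3759.2, 4141.9 and 4065.1 in CTL. All IPC_TRI arrays were below CTL, and in APC_TRI replicate 3 alone reached the lowest control array. The fall was 1.53-fold in IPC_TRI (log2 -0.61 ± 0.15, adjusted p = 0.00741) and 1.43-fold in APC_TRI (-0.52 ± 0.15, adjusted p = 0.0300). The APC_TRI call was lost without APC_TRI 1, 2 or 5 or CTL 2, 4 or 5 (adjusted p 0.0533 to 0.0972). With beta-actin as covariate the changes were -0.45 in IPC_TRI (adjusted p = 0.108) and -0.39 in APC_TRI (adjusted p = 0.174). With the share of the brightest 1% they were -0.40 (adjusted p = 0.229) and -0.39 (adjusted p = 0.168), and with the spike signal the APC_TRI change was -0.44 (adjusted p = 0.0592).

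Slc25a4, the brightest member, gave a call in IPC_TRI that rests on the scaling. It read 34904.8, 39746.1, 30195.6, 37843.5 and 16654.9 in IPC_TRI and 36709.3, 33161.7, 39831.4, 40356.2 and 34025.3 in APC_TRI, against 35837.8, 37192.4, 45487.6, 30017.5 and 31437.7 in CTL. These signals overlap, with IPC_TRI 5 far below the rest. After quantile normalization Slc25a4 fell 1.58-fold in IPC_TRI with no overlap (log2 -0.66 ± 0.13, adjusted p = 0.00136). The change was -0.22 as deposited (adjusted p = 0.418), -0.43 with median centring (adjusted p = 0.153), -0.24 with upper quartile centring (adjusted p = 0.426) and -0.46 with cyclic loess (adjusted p = 0.0249). With the share of the brightest 1% as covariate it was -0.53 (adjusted p = 0.0692). In APC_TRI it was -0.30 ± 0.13 (adjusted p = 0.155) and its sign turned as deposited, to 0.04.

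No probe set of the cytosolic creatine kinases was called in either trigger group. Ckm read 23567.5, 43559.2, 35575.8, 30821.1 and 38058.0 in IPC_TRI and 25405.9, 29993.4, 22891.2, 25262.4 and 35336.9 in APC_TRI, against 18210.4, 24007.6, 26499.5, 17928.1 and 21437.6 in CTL. In IPC_TRI 4 of 5 arrays were above every control array. The normalized change was 0.32 ± 0.14 in IPC_TRI (adjusted p = 0.108) and 0.15 ± 0.14 in APC_TRI (adjusted p = 0.529). The IPC_TRI change passed the threshold as deposited (0.65, adjusted p = 0.0125), with upper quartile centring (0.64, adjusted p = 0.0181), with cyclic loess (0.47, adjusted p = 0.0345) and without IPC_TRI 1 (0.43, adjusted p = 0.0322). With median centring it was 0.44 (adjusted p = 0.102), and with the share of the brightest 1% as covariate 0.05 (adjusted p = 0.912).

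The probe sets of Ckb read differently from each other. M57664_at read 5544.3, 7736.4, 5096.3, 7199.9 and 9355.7 in IPC_TRI and 6776.3, 4868.7, 4564.4, 6582.6 and 6181.9 in APC_TRI, against 4589.6, 5256.0, 6175.0, 5021.4 and 4784.6 in CTL. Both trigger groups overlap CTL there, with changes of 0.40 ± 0.18 in IPC_TRI (adjusted p = 0.127, and 0.0391 without IPC_TRI 3) and 0.15 ± 0.18 in APC_TRI (adjusted p = 0.652). M57664_g_at read 647.3, 552.3, 490.1, 591.0 and 453.6 in APC_TRI, against 731.0, 790.7, 960.3, 824.1 and 664.9 in CTL. The groups do not overlap, and the change of -0.52 ± 0.18 missed the threshold (adjusted p = 0.0679). In IPC_TRI this probe set changed by -0.04 ± 0.18 (adjusted p = 0.920).

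The triggers were also set against each other. No member was called between IPC_TRI and APC_TRI, beside 0.439% of all probe sets. Ckmt2 X59736mRNA_at averaged 2844 ± 581 in IPC_TRI and 3182 ± 269 in APC_TRI (SD, n = 5 each), a log2 difference of -0.11 with a 95% interval from -0.41 to 0.19. For Vdac1 AF048828_at the difference was -0.52 (-1.12 to 0.08), and for Slc25a4 it was -0.37 (-0.64 to -0.09, adjusted p = 0.182).

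**Figure D2:**
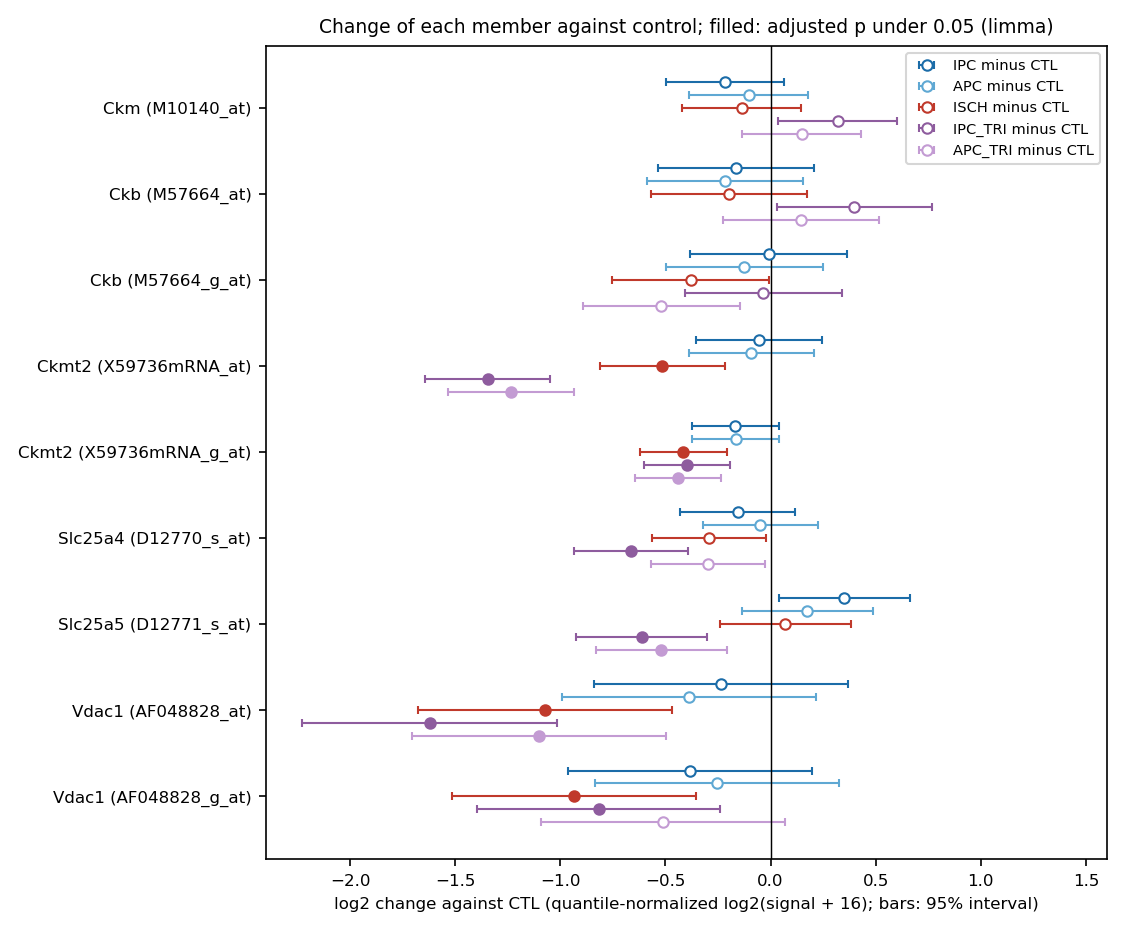
Log2 change of each member probe set against CTL after quantile normalization, with its 95% interval from limma (x axis, log2 units), for IPC, APC, ISCH, IPC_TRI and APC_TRI from top to bottom within each probe set. Filled points passed an adjusted p of 0.05; they belong to ISCH and the trigger groups, and the IPC and APC points are all open.

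The promoters of the 3 genes called in both trigger groups, and of Ckm, which was not, are shown for comparison. They come from the RefSeq table of promoters on build GRCr8, each 300 bases long around a transcript start that the table takes, and written 5′ to 3′ on the gene's strand. The genes themselves lie at chr2:24815008-24845511 (Ckmt2), chr10:37029377-37060542 (Vdac1), chrX:120897616-120900683 (Slc25a5) and chr1:88189382-88199717 (Ckm). The Vdac1 window lies inside that gene's span and not at its first base, and the table does not name the transcript it was taken from. The Ckm window covers that gene's first base, but the transcript start it was set around lies further inside the gene. Capitals mark matches to CANNTG (an E-box), TATAA and CCAAT, each searched on both strands, and no marked matches overlap.
Ckmt2, chr2:24845462-24845761, minus strand: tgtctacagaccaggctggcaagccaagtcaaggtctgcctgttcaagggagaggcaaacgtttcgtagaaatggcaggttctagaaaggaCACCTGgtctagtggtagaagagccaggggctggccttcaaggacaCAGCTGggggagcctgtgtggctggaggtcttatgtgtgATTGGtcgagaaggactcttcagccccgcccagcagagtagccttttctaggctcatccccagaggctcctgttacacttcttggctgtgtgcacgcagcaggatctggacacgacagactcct
Vdac1, chr10:37032959-37033258, plus strand: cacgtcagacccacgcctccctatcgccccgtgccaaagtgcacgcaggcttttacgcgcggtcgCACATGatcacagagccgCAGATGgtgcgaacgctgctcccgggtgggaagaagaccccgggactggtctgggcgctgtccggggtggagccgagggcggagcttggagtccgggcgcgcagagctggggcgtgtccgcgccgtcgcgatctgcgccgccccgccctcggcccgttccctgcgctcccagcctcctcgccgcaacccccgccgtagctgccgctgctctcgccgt
Slc25a5, chrX:120897366-120897665, plus strand: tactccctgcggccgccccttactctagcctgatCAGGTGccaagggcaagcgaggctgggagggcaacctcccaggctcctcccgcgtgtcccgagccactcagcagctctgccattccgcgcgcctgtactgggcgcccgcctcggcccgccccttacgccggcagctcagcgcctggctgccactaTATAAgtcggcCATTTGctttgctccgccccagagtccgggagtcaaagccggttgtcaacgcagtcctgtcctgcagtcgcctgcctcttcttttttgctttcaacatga
Ckm, chr1:88189211-88189510, plus strand: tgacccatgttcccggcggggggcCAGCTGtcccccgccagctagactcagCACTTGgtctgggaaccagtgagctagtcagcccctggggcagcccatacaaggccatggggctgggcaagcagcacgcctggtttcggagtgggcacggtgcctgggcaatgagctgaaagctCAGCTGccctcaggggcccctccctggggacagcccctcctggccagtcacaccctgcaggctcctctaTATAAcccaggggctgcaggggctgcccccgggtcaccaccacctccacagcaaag
CANNTG occurred 2 times in Ckmt2, Vdac1 and Slc25a5 and 3 times in Ckm, and 72.1% of the 33469 promoters in the table hold it at least once. TATAA occurred once in Slc25a5 and once in Ckm, against 26.2% of all promoters. CCAAT occurred once, on the opposite strand, in Ckmt2 (as ATTGG), against 37.5% of all promoters. None of the motifs separates the 3 genes called in both trigger groups from Ckm. Slc25a4 (chr16:52805521-52809316) and Ckb (chr6:136550583-136553464) each held TATAA once and CCAAT 2 times, and CANNTG 0 times.

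Hearts of the ischemia group had lower Vdac1 and Ckmt2 signals than control. In ISCH against CTL, 4 of 9 member probe sets fell and 0 rose, beside 8.77% of all probe sets called, 4.82% as lower. Both probe sets of each of those genes were among the 4, and 3 of the 9 did not overlap CTL on the normalized scale, beside 10.2% of all. Vdac1 AF048828_at read 489.2, 1145.0, 741.7, 1127.9 and 940.6 in ISCH, all below the lowest control array of 1629.3. It fell 2.10-fold (log2 -1.07 ± 0.30, adjusted p = 0.0182). AF048828_g_at read 1180.5, 2353.7, 2122.2, 2070.6 and 1408.4 in ISCH, all below the lowest control array of 3229.4, and fell 1.91-fold (-0.94 ± 0.28, adjusted p = 0.0334). Both Vdac1 calls held under the 4 other scalings. The call of AF048828_at was lost without ISCH 1 (-0.86, adjusted p = 0.0694) or ISCH 3 (-1.03, adjusted p = 0.0504), and that of AF048828_g_at without CTL 1, 3, 4 or 5 or ISCH 1 or 5 (adjusted p 0.0608 to 0.0929).

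Ckmt2 X59736mRNA_at read 4027.2, 6609.1, 5336.9, 6400.3 and 4436.7 in ISCH, where replicates 2 and 4 reached the control range of 6257.6 to 8568.2. It fell 1.43-fold (log2 -0.51 ± 0.15, adjusted p = 0.0223). The call was lost without CTL 1, ISCH 1 or ISCH 5 (adjusted p 0.0706 to 0.0796) and with 3 of the 4 other scalings, as deposited (-0.46, adjusted p = 0.0618), with median centring (-0.55, adjusted p = 0.0962) and with upper quartile centring (-0.45, adjusted p = 0.104). X59736mRNA_g_at read 14494.3, 18079.1, 16747.3, 16599.5 and 13891.9 in ISCH and overlapped CTL as deposited. Its normalized fall was 1.33-fold (-0.42 ± 0.10, adjusted p = 0.00729), and its change as deposited was -0.10 (adjusted p = 0.673).

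None of these 4 calls held when the spike signal was a covariate (log2 changes -0.51 to -0.23) or with the share of the brightest 1% (-0.45 to -0.24). With beta-actin as covariate AF048828_g_at alone lost its call (-0.86, adjusted p = 0.0781). The spike signal and the brightest 1% share were higher in ISCH than in CTL, so they and the group are partly confounded.

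The remaining members gave no call in ISCH. Slc25a4 read 50043.3, 45149.4, 37827.3, 41108.8 and 38886.3, overlapping CTL. Its change was -0.29 ± 0.13 (adjusted p = 0.189) after quantile normalization, and the sign turned under the 4 other scalings, from 0.03 with cyclic loess to 0.26 with upper quartile centring. Slc25a5 averaged 4228 ± 616 in ISCH and 4007 ± 167 in CTL, a change of 0.07 (95% interval -0.24 to 0.38). Ckm read 34593.9, 23944.8, 19156.7, 23228.0 and 20593.5 in ISCH. Its replicate 1 was above every control array, and its change was -0.14 ± 0.14 (adjusted p = 0.642), with 0.15 as deposited. Ckb changed by -0.20 at M57664_at (adjusted p = 0.603) and by -0.38 at M57664_g_at (adjusted p = 0.223).

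No member was called between preconditioned and control hearts. In IPC against CTL 0 of 9 probe sets were called, beside 3.89% of all probe sets, and in APC against CTL 0 of 9, beside 3.66%. Vdac1 AF048828_at read 1681.0, 1964.2, 2085.2, 1654.0 and 830.0 in IPC and 1223.6, 1548.7, 900.4, 1649.1 and 2011.9 in APC. In both groups at least 1 array lay below CTL and others within it. The log2 differences from CTL were -0.24 in IPC (95% interval -0.84 to 0.37) and -0.39 in APC (-0.99 to 0.22). The direct differences from ISCH were not called (below). At AF048828_g_at the normalized log2 means were 11.36 ± 0.558 in IPC and 11.49 ± 0.465 in APC. They were 11.75 ± 0.0966 in CTL and 10.81 ± 0.411 in ISCH (SD, n = 5 each).

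Ckmt2 X59736mRNA_at read 7779.0, 8081.1, 7060.8, 8397.1 and 5207.7 in IPC and 6139.8, 5987.9, 7463.6, 8163.1 and 7512.1 in APC, overlapping CTL. Its differences from CTL were -0.05 in IPC (95% interval -0.35 to 0.25) and -0.09 in APC (-0.39 to 0.21). Slc25a5 read 5578.9, 4476.8, 4680.6, 6589.5 and 4882.4 in IPC and 4443.5, 4186.7, 4979.7, 4602.9 and 5051.4 in APC. As deposited, all 10 arrays were above the highest control array of 4150.8. After normalization the IPC arrays stayed above CTL and the APC arrays overlapped it, with changes of 0.35 ± 0.15 in IPC (adjusted p = 0.325) and 0.17 ± 0.15 in APC (adjusted p = 0.810). This was the 1 of 9 member probe sets that did not overlap CTL in IPC, beside 6.90% of all probe sets, and 0 of 9 did so in APC, beside 7.09%.

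Set against ISCH, the preconditioned groups again gave 0 calls among the members, beside 0.172% of all probe sets called in IPC and 0.267% in APC. Those with the smallest p were at Ckmt2 X59736mRNA_at, 0.46 ± 0.15 for IPC (adjusted p = 0.219) and 0.42 ± 0.15 for APC (adjusted p = 0.211), and at Vdac1 AF048828_at, 0.84 ± 0.30 for IPC (adjusted p = 0.254) and 0.69 ± 0.30 for APC (adjusted p = 0.334). The Ckmt2 difference between IPC and ISCH passed the threshold without IPC 5 (0.58, adjusted p = 0.0269). With array weights it passed too (0.48, adjusted p = 0.0216), as did that of Vdac1 (0.82, adjusted p = 0.0209). No difference was called between the full protocols: 0 of 5244 probe sets were called by limma between IPC and APC (0%), with 137 at an unadjusted p under 0.05, and the members' log2 differences lay between -0.13 and 0.18.

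Each full protocol was also compared with its own trigger, and there Ckmt2 X59736mRNA_at and Slc25a5 were higher in both. Between IPC and IPC_TRI 6 of 9 member probe sets were called, 4 as higher and 2 as lower in IPC, beside 23.4% of all probe sets, and 2 of 9 did not overlap, beside 11.7%. Between APC and APC_TRI 2 of 9 were called, both as higher in APC, beside 17.7% (9.82% higher), and 2 of 9 did not overlap, beside 16.6%. Ckmt2 X59736mRNA_at averaged 7305 ± 1273 in IPC and 2844 ± 581 in IPC_TRI (SD, n = 5 each), and 7053 ± 946 in APC and 3182 ± 269 in APC_TRI. The groups do not overlap in either pair, and the signal was 2.45-fold higher in IPC (log2 1.29 ± 0.15, adjusted p = 1.47e-07) and 2.21-fold higher in APC (1.14 ± 0.15, adjusted p = 1.30e-06). X59736mRNA_g_at missed the threshold in both pairs, with 0.23 for IPC (adjusted p = 0.0997, and 0.0270 without IPC 5) and 0.27 for APC (adjusted p = 0.0583, and 0.0426 without APC 2 or 0.0499 without APC_TRI 1).

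Slc25a5 averaged 5242 ± 860 in IPC and 2556 ± 652 in IPC_TRI, and 4653 ± 364 in APC and 2819 ± 645 in APC_TRI (SD, n = 5 each). It was 1.95-fold higher in IPC (log2 0.96 ± 0.15, adjusted p = 3.70e-05) and 1.62-fold higher in APC (0.69 ± 0.15, adjusted p = 0.00169), with no overlap in either pair. Vdac1 AF048828_at was 2.62-fold higher in IPC (1.39 ± 0.30, adjusted p = 0.00125) and missed the threshold in APC (0.71 ± 0.30, adjusted p = 0.0922). The IPC call was lost with beta-actin (1.22, adjusted p = 0.0817) or the brightest 1% share (0.74, adjusted p = 0.178) as covariate. The other Vdac1 probe set, AF048828_g_at, was not called in either pair. Slc25a4 was 1.42-fold higher in IPC than in IPC_TRI (0.51 ± 0.13, adjusted p = 0.00666), a call that was lost under the 4 other scalings (0.08 to 0.34) and with beta-actin (0.24, adjusted p = 0.460) or the brightest 1% share (0.38, adjusted p = 0.174) as covariate.

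The cytosolic creatine kinases went the other way in the ischemic pair, at Ckm and at M57664_at of Ckb. The other Ckb probe set, M57664_g_at, was not called. Ckm read 17871.3, 18807.0, 19160.8, 16671.9 and 23887.9 in IPC, of which replicate 5 alone reached the IPC_TRI range of 23567.5 to 43559.2. It fell 1.45-fold in IPC against IPC_TRI (log2 -0.54 ± 0.14, adjusted p = 0.00570), a call that held under the 4 other scalings (-0.81 to -0.55). With beta-actin as covariate the change was -0.43 (adjusted p = 0.204), and with the brightest 1% share -0.26 (adjusted p = 0.346). Ckb M57664_at fell 1.48-fold (-0.57 ± 0.18, adjusted p = 0.0239), and the call was lost without IPC 1, 3 or 5 or IPC_TRI 5 (adjusted p 0.0505 to 0.0981) and with beta-actin (-0.23, adjusted p = 0.633) or the brightest 1% share (-0.36, adjusted p = 0.366) as covariate. In APC against APC_TRI the changes were -0.25 for Ckm (adjusted p = 0.207) and -0.36 for M57664_at (adjusted p = 0.167).

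The step from trigger to full protocol was compared with the step from control to ischemia. The contrast (IPC minus IPC_TRI) minus (ISCH minus CTL) gave 6 of 9 calls, all higher, beside 13.6% of all probe sets (8.45% higher). The same contrast with APC gave 3 of 9, all higher, beside 8.22% (4.81% higher). At Ckmt2 X59736mRNA_at the difference was 1.81 ± 0.21 with IPC (adjusted p = 2.36e-06) and 1.66 ± 0.21 with APC (adjusted p = 2.99e-05). At Vdac1 AF048828_at it was 2.46 ± 0.42 with IPC (adjusted p = 3.67e-04) and 1.79 ± 0.42 with APC (adjusted p = 0.00828). Among the IPC calls, that of Slc25a4 (0.80 ± 0.19) was -0.17 as deposited. With the share of the brightest 1% as covariate the Ckmt2 difference with IPC was 1.24 (adjusted p = 0.0513), and 0 of the 6 were called.

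**Figure D3:**
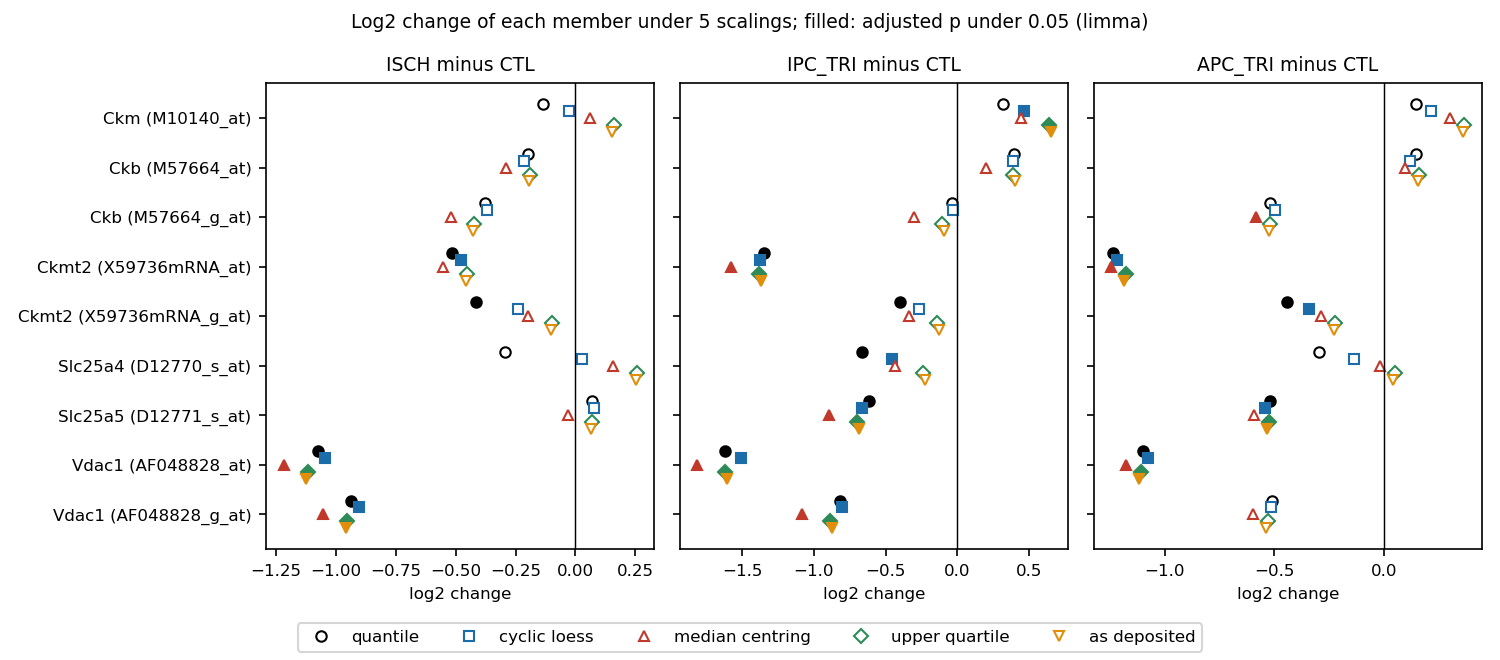
Log2 change of each member probe set against CTL (x axis, log2 units) for ISCH, IPC_TRI and APC_TRI under 5 scalings of the same signals; filled symbols passed an adjusted p of 0.05 in limma. Ckmt2 X59736mRNA_at and Vdac1 AF048828_at keep their place, while Slc25a4, Ckm and X59736mRNA_g_at, the brightest members, move between scalings.

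Scaling touched the brightest members most. Of the 22 member changes called in the 9 comparisons above that set a protocol against CTL, ISCH or its trigger, 14 were called under all 4 other scalings. The 8 others belonged to Slc25a4, X59736mRNA_g_at, X59736mRNA_at in ISCH, Slc25a5 in APC_TRI and Ckb in IPC against IPC_TRI. For Slc25a5 in APC_TRI the loss was by a small margin (median centring, adjusted p = 0.0507). Median centring moved the median change of all probe sets to -0.19 in IPC_TRI against CTL and to 0.19 in IPC against IPC_TRI, where quantile normalization gave -0.05 and 0.05. Relative to those medians the changes of Ckmt2 X59736mRNA_at kept their sign under all 5 scalings.

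Ratios of 2 deposited signals on the same array do not depend on the scaling factor. For 6 such ratios and 9 contrasts, 54 two-sided exact permutation tests over arrays were run on log2 ratios, and 27 had an adjusted p under 0.05. The ratios were chosen after the data were seen. No ratios of other probe sets were taken, so the share that would pass over the whole array is not known. The count of 27 therefore cannot be read as a trait of the members. With 5 arrays against 5 the smallest exact p is 0.00794, which became 0.0204 after adjustment. Such a ratio shows unequal change and not which probe set changed.

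The signal of Ckmt2 X59736mRNA_at was 0.182 ± 0.0378 of that of X59736mRNA_g_at in IPC_TRI, 0.219 ± 0.0248 in APC_TRI, 0.333 ± 0.0426 in ISCH, 0.433 ± 0.0373 in IPC, 0.422 ± 0.0435 in APC and 0.425 ± 0.0298 in CTL (SD, n = 5 each). The trigger groups and ISCH lay wholly below CTL. The ratio was 2.37-fold lower in IPC_TRI, 1.95-fold lower in APC_TRI and 1.28-fold lower in ISCH than in CTL (exact permutation test, adjusted p = 0.0204 for each). The probe sets of Ckmt2 therefore differed in how far they fell, by more than the spread between arrays.

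The paired probe sets of the other genes diverged in the trigger groups as well. For Vdac1, AF048828_at over AF048828_g_at was 0.327 ± 0.0661 in IPC_TRI and 0.360 ± 0.0308 in APC_TRI, against 0.543 ± 0.0342 in CTL. For Ckb, M57664_at over M57664_g_at was 9.39 ± 1.73 in IPC_TRI and 10.7 ± 1.89 in APC_TRI, against 6.53 ± 0.425 in CTL (exact permutation test, adjusted p = 0.0204 for the 4 comparisons, with no overlap). Beside these stands the lower 3′ to 5′ beta-actin ratio of the trigger groups, while the 3′ to 5′ ratio of Gapdh was 1.10 ± 0.0776 in IPC_TRI and 1.15 ± 0.118 in APC_TRI, against 0.960 ± 0.0671 in CTL. The positions of the probes along the transcripts were not used here, and the part of RNA integrity in these divergences was not tested. How often paired probe sets of genes outside the members diverged was not examined.

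Of the 6 ratios, that of Ckm to X59736mRNA_at of Ckmt2 differed most between the trigger groups and CTL. It was chosen after the signals of these probe sets were seen, so its rank and its test add no support to their changes. The ratio of Ckm to the brighter Ckmt2 probe set, X59736mRNA_g_at, which shifted far less, was not taken. Ckm over X59736mRNA_at was 12.8 ± 4.86 in IPC_TRI and 8.85 ± 2.11 in APC_TRI, against 3.04 ± 0.841 in CTL. No trigger array overlapped CTL, and the ratio was 4.07-fold higher in IPC_TRI and 2.93-fold higher in APC_TRI (exact permutation test, adjusted p = 0.0204 for each). In ISCH the ratio was 4.81 ± 2.16 and overlapped CTL (exact permutation test, adjusted p = 0.126). Ckm over Ckb M57664_at did not pass in the trigger groups (exact permutation test, adjusted p = 0.289 and 0.303) and was 1.27-fold higher in ISCH than in CTL (adjusted p = 0.0204).

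**Figure D4:**
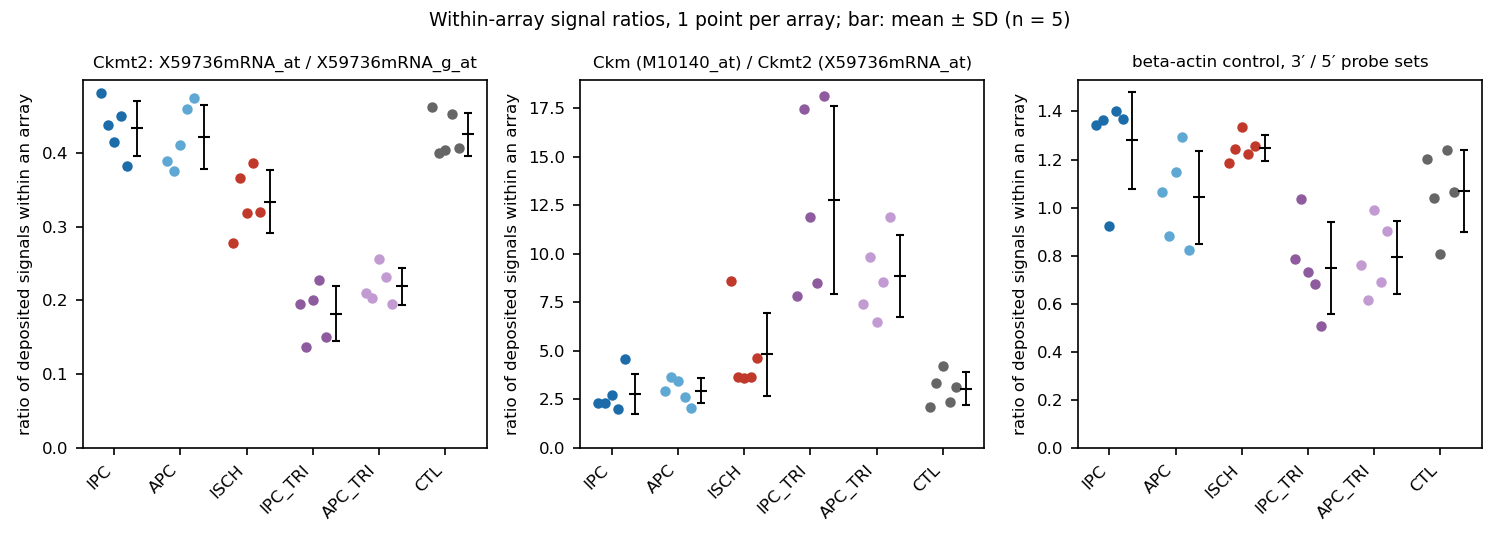
Ratios of deposited signals within each of the 30 arrays (linear scale, from 0): Ckmt2 X59736mRNA_at over X59736mRNA_g_at, Ckm over Ckmt2 X59736mRNA_at, and the 3′ over the 5′ beta-actin control set, with mean and SD of the 5 arrays of a group. In the first 2 panels the trigger arrays lie apart from CTL, and in the beta-actin panel they are lower on average, 0.748 and 0.792 against 1.07, with overlap.

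The translocators shifted against each other too. Slc25a4 over Slc25a5 was 6.27 ± 0.942 in IPC, against 10.4 ± 3.07 in ISCH and 9.04 ± 1.89 in CTL. It was 1.63-fold lower in IPC than in ISCH with no overlap (exact permutation test, adjusted p = 0.0204) and 1.43-fold lower than in CTL with overlap (exact permutation test, adjusted p = 0.0317). In APC it was 7.32 ± 1.54, which did not pass against ISCH (1.41-fold lower, exact permutation test, adjusted p = 0.0691) or CTL (1.24-fold lower, adjusted p = 0.243). In the triggers it was 12.5 ± 2.78 in IPC_TRI and 13.4 ± 1.89 in APC_TRI, 1.38-fold (exact permutation test, adjusted p = 0.121) and 1.49-fold higher than in CTL (adjusted p = 0.0317, with overlap). Against its own trigger it was 1.97-fold lower in IPC and 1.85-fold lower in APC, with no overlap (exact permutation test, adjusted p = 0.0204 for each). By the maker's naming, the suffix _s_at of both sets marks probes that can match more than 1 similar transcript, so cross-reading between these near relatives is uncertain.

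Markers of the tissue were read alongside. All 10 measured cardiomyocyte markers had signal, with a sum between 188132 and 509383 over all arrays. Of them 3 fell in IPC_TRI (Pln, Myh6 and Ryr2), 2 in APC_TRI (Pln and Fabp3) and 3 in ISCH (Myh6, Ryr2 and Atp2a2). Beside these, 10.1%, 4.92% and 4.82% of all probe sets were called as lower. Pln, which restrains the calcium pump of the sarcoplasmic reticulum, fell by 0.58 in IPC_TRI and 0.63 in APC_TRI (adjusted p = 0.0103 and 0.00877), and kept both calls under the 4 other scalings and without any single array. The ryanodine receptor Ryr2 fell by 1.00 in IPC_TRI and by 1.09 in ISCH, and kept these calls under the 4 other scalings but lost each of them without any 1 of 6 arrays (CTL 1 to 4 in both, IPC_TRI 2 and 5, and ISCH 1 and 3; adjusted p 0.0622 to 0.163). The calls of Myh6, Atp2a2 and Fabp3 held under none of the 4 other scalings. The summed deposited signal of the cardiomyocyte list was 308833 to 438821 in IPC_TRI, 277822 to 343473 in APC_TRI and 286635 to 509383 in ISCH, against 213813 to 353411 in CTL. On the normalized scale the median change of the list was -0.18 in IPC_TRI, -0.14 in APC_TRI and -0.21 in ISCH, beside -0.05, -0.01 and -0.01 over all tested probe sets. The deposited sum was thus not lower in these groups while the normalized medians were, and the part of the share of cardiomyocytes in the member changes was not tested.

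Of 6 tested skeletal muscle markers 3 rose in IPC_TRI (Casq1 1.10, Atp2a1 0.97 and Myl1 0.58, log2) and 1 in APC_TRI (Casq1 1.00), beside 6.46% and 3.72% of all probe sets called as higher. The summed deposited signal of all 9 measured skeletal muscle markers, tested or not, overlapped between the groups. It was 1949 to 4159.9 in IPC_TRI and 2027 to 2599.7 in APC_TRI, against 1329 to 2440 in CTL. Without single arrays Casq1 kept its call in IPC_TRI, while Atp2a1 lost it without CTL 2, CTL 4 or IPC_TRI 5, Myl1 without CTL 1, 2, 4 or 5 or IPC_TRI 1 or 2 and with median centring, and Casq1 in APC_TRI without CTL 1, 2 or 4 or APC_TRI 1 or 3 (adjusted p 0.0525 to 0.102). The 10 measured fibroblast markers summed to 59560 to 98263 in IPC_TRI, 60057.5 to 68344 in APC_TRI and 75711 to 96897 in ISCH, against 46629.5 to 54845 in CTL. These 3 groups thus lay wholly above CTL as deposited. Of 9 tested fibroblast markers 5 rose in ISCH (Col5a1, Col1a2, Dcn, Col3a1 and Col1a1), and in each trigger group Dcn alone did (log2 0.93 in IPC_TRI and 0.85 in APC_TRI). Over all probe sets 3.95% were called as higher in ISCH, 6.46% in IPC_TRI and 3.72% in APC_TRI. The fibroblast list's median was 0.65 in ISCH, -0.21 in IPC_TRI and -0.22 in APC_TRI.

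Endothelial markers summed to 3333 to 4534 in ISCH, against 1963 to 2966 in CTL, and 2 of 7 rose there (Egfl7 and Thbd), with a median of 0.66. In the trigger groups their sums overlapped CTL, and 1 of 7 fell in IPC_TRI (Pecam1). The 8 measured markers of nerve and Schwann cells summed to 1209 to 1802 in ISCH, against 736.5 to 1098 in CTL. Of these markers 4 were tested, and 1 rose there (Pmp22). Of 6 smooth muscle markers 0 were called in ISCH, IPC_TRI or APC_TRI against CTL, and of 3 myeloid markers 1 fell in ISCH (Cd14). Beside these counts, 3.95% of all probe sets were called as higher and 4.82% as lower in ISCH, and 10.1% as lower in IPC_TRI. Such calls were not limited to ISCH and the triggers. Against CTL, 1 of 7 endothelial markers rose and 1 of 3 myeloid markers fell in IPC and in APC. In APC 1 of 4 nerve and Schwann cell markers rose as well. Of all probe sets 1.87% were called as higher and 2.02% as lower in IPC, and 1.37% and 2.29% in APC. The part of other cell types in the member changes was not tested.

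Other genes of phosphotransfer were read from a list. Of 13 tested genes of phosphotransfer and creatine supply (the creatine transporter Slc6a8, the synthesis enzyme Gamt, Ckmt1, adenylate and nucleoside diphosphate kinases, Ampd3, Adk and AMP kinase subunits), 0 were called in ISCH, IPC, APC, IPC_TRI or APC_TRI against CTL, or in IPC or APC against ISCH. The shares of all probe sets called in the contrasts with CTL were 8.77%, 3.89%, 3.66%, 16.6% and 8.64%, and the list was not tested as a set. Against ISCH they were 0.172% in IPC and 0.267% in APC. The smallest p-values of the list against CTL were those of Slc6a8 at -0.47 in ISCH (adjusted p = 0.154) and adenosine kinase Adk at -0.67 in IPC_TRI (adjusted p = 0.106). The median change of the list was -0.05 in IPC_TRI and -0.02 in APC_TRI, beside -0.05 and -0.01 over all tested probe sets. The only call was Ckmt1, the ubiquitous mitochondrial creatine kinase, which was lower in APC than in APC_TRI (log2 -0.74 ± 0.22, adjusted p = 0.0165). This was 1 of 13, beside 17.7% of all probe sets called there, 7.88% as lower, so the count is not above that background. The call was lost without APC 4 (adjusted p = 0.0633).

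Among 23 tested mitochondrial carriers and partners of VDAC or the translocator, 3 rose and 1 fell in IPC_TRI, and 2 rose and 1 fell in APC_TRI, beside 16.6% and 8.64% of all probe sets called. The IPC_TRI count is near that background. The list's medians were -0.05 in IPC_TRI and 0.05 in APC_TRI, beside -0.05 and -0.01 over all. The mitochondrial chaperone Hspa9, a partner of VDAC at contacts with the endoplasmic reticulum, fell by 1.499 in IPC_TRI (SE 0.38, adjusted p = 0.00843) and was higher by 1.39 in IPC than in IPC_TRI. The fission adaptor Fis1 rose by 0.85 in IPC_TRI (adjusted p = 0.00123) and by 0.58 in APC_TRI (adjusted p = 0.0296). Timm44, of the inner membrane import motor, rose by 1.09 in APC_TRI (adjusted p = 0.0107). Those calls of Hspa9 against CTL, of Timm44 and of Fis1 in IPC_TRI held under the 4 other scalings and without any single array, whereas Fis1 in APC_TRI lost its call without APC_TRI 1, 2 or 5 or CTL 2 or 4 (adjusted p 0.0564 to 0.110) and with median centring (adjusted p = 0.0937).

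The other calls of that list against CTL were less stable. Glycerol kinase Gk rose by 1.06 in IPC_TRI, and lost its call without CTL 2 or 3 or IPC_TRI 1 or 5 (adjusted p 0.0539 to 0.0910). The outer membrane import receptor Tomm20 rose by 0.60 in IPC_TRI, and lost its call without IPC_TRI 2 (adjusted p = 0.0653), with median centring (0.28, adjusted p = 0.328) and with upper quartile centring (0.48, adjusted p = 0.0632). The inner membrane fusion protein Opa1 fell by 1.12 in APC_TRI, and lost its call without CTL 1, 2, 3 or 4 or APC_TRI 2, 3 or 4 (adjusted p 0.0598 to 0.109).

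The matrix chaperone Hspd1 was the 1 member of the list called in ISCH (0.49, adjusted p = 0.0237) and in IPC (0.53, adjusted p = 0.0236) against CTL. The ISCH call was lost without CTL 1 or ISCH 3 or 4 and the IPC call without CTL 1 or IPC 1 or 3 (adjusted p 0.0558 to 0.0984). Median centring ended both (adjusted p = 0.199 and 0.108), and upper quartile centring the ISCH call (adjusted p = 0.0558). Against their triggers Hspd1 was higher by 0.66 in IPC (adjusted p = 0.00114) and by 0.61 in APC (adjusted p = 0.00255), under the 4 other scalings and without any single array too. 

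Between the full protocols and their triggers, 3 genes of the list were higher and 2 lower in IPC, and 4 were higher and 1 lower in APC, beside 23.4% and 17.7% of all probe sets called. In IPC against IPC_TRI, besides Hspd1 and Hspa9, Opa1 was higher by 0.94 (adjusted p = 0.0401), Fis1 fell by 0.93 (adjusted p = 2.18e-04) and Gk fell by 1.03 (adjusted p = 0.0222). The call of Opa1 was kept under 1 of the 4 other scalings and was lost without 7 of the 10 single arrays (adjusted p 0.0705 to 0.114), and that of Gk was lost without IPC 1 or IPC_TRI 1 or 5 (adjusted p 0.0506 to 0.0740).
In APC against APC_TRI, besides Hspd1, the apoptosis inhibitor Bcl2l1 was higher by 0.72 (adjusted p = 0.00847), the apoptosis promoter Bad by 0.96 (adjusted p = 0.0386) and Opa1 by 1.17 (adjusted p = 0.0143), and Timm44 fell by 1.01 (adjusted p = 0.00825). All 4 calls held under the 4 other scalings. Those of Bcl2l1 and Timm44 were kept without any single array, that of Bad was lost without 7 of the 10 (adjusted p 0.0547 to 0.132) and that of Opa1 without APC_TRI 2 or 4 (adjusted p 0.0528 and 0.0624).

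Over the 30 arrays, the normalized values of Ckmt2 X59736mRNA_at followed those of Slc25a5 (Pearson r = 0.829) and Vdac1 AF048828_at (r = 0.827), and Ckm ran opposite to Slc25a5 (r = -0.819). The paired probe sets of a gene correlated at 0.831 for Vdac1, 0.776 for Ckmt2 and 0.501 for Ckb. These correlations share the arrays, their scaling and the group differences, and are given as a description. Among 3154 genes compared, those most like Slc25a4 were Acadm (0.870), an enzyme of fatty acid oxidation, Slc1a3 (0.823) and Cox5b (0.804), a subunit of cytochrome oxidase. Those most like Vdac1, by AF048828_g_at, were Gpam (0.829), Hipk3 (0.826) and Ndufs1 (0.790), a subunit of respiratory complex I. For Ckmt2, by X59736mRNA_g_at, they were Glud1 (0.806), Sgk1 (0.772) and Acadvl (0.761). For Slc25a5 they were Srsf11 (0.852), Dbi (0.851) and Rbbp7 (0.846). For Ckm they were Rbpms (0.846), Strn4 (0.844) and Calr (0.839), and for Ckb, by M57664_at, Phldb1 (0.805), Capns1 (0.794) and Pi4kb (0.794).

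In all, 7 of the 9 member probe sets differed among the 6 groups by limma's F test, beside 31.6% of all probe sets. Those that did not were M57664_g_at of Ckb (adjusted p = 0.0796) and AF048828_g_at of Vdac1 (adjusted p = 0.0685). Together the 9 probe sets took 1.04% to 1.40% of the signal of an array, with 1.15% ± 0.108 in IPC_TRI, 1.17% ± 0.0276 in APC_TRI, 1.18% ± 0.0587 in ISCH, 1.21% ± 0.0723 in IPC, 1.24% ± 0.101 in APC and 1.30% ± 0.0526 in CTL (SD, n = 5 each).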

How the data were processed

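Total RNA of rat left ventricle was hybridised to 30 Affymetrix arrays, 5 per protocol, called biological replicates by the labels, which do not say that equal replicate letters share an animal or day. The deposited values are signal intensities on a linear scale. Their 2% trimmed mean was 500.8 to 501 on every array, so the authors' values carry a scaling to a common mean, while medians ranged from 114.6 to 189.2. The labels name no software or settings. Among the values, 5 were 0. No pair of arrays held identical values (0 pairs, highest correlation 0.977). The number of arrays limits the precision.

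Gene names came from GEO's platform annotation, matched to RefSeq (GRCr8) by Entrez identifier: 7006 probe sets had 1 symbol, 308 several and 1426 none, and 59 were controls. Control sets were left out, 16 was added, log2 was taken and arrays were quantile-normalized. Probe sets in the lowest 40% by mean were then dropped (5244 tested). Limma 3.58.1 (R 4.3.3) was fitted with 1 mean per group over all 30 arrays and a mean-variance trend, with p-values adjusted by Benjamini-Hochberg over all tested probe sets per contrast. The scripts were tested on simulated data. Within-array ratios used two-sided exact permutation tests over arrays (scipy 1.17.1). Python 3.11.15, numpy 2.4.6, pandas 2.3.3 and matplotlib 3.10.9 were used for the rest.

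All member probe sets were tested and counted in every contrast, and some of those not called are not given by name. The leading probe set of a gene was the one with the highest mean. Of the pathway lists, genes that passed were named (at most 4 per direction by p), or the 2 with the smallest p. Likeness was the 3 highest Pearson r over the 30 arrays. Members, lists and tests were chosen with earlier results of these data known. Alternatives were pseudocounts of 1 and 64, no filter, 60% left out, the deposited scale, median and upper quartile centring, cyclic loess, a replicate block, only the groups of a contrast, and each array left out. Chosen after seeing the data were the covariates (spike signal, beta-actin ratio, share of the brightest 1%), array weights, leaving out IPC_TRI 5 and ISCH 1, the trigger against trigger contrast, the contrasts of differences and the ratios.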

Additional observations from a re-analysis of the deposited data

Results flagged for a closer look

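In 4 of 54 sets of 5 arrays (9 probe sets in 6 groups) 1 array lay far from the other 4 on the normalized log2 scale, and chance alone marks about 1 in 20 such sets. Vdac1 AF048828_at was lowest in IPC 5, at 9.75, with the others between 10.70 and 10.97. Slc25a4 was highest in APC 3, at 15.7, with the others between 15.2 and 15.3. Ckb M57664_at was highest in ISCH 1, at 12.8, with the others between 11.9 and 12.1. Ckmt2 X59736mRNA_g_at was lowest in IPC_TRI 3, at 13.7, with the other values all near 13.9.

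The effect of the full protocol against its trigger differed from that of ISCH against CTL, by limma's test of the difference, at 9 places. For (IPC minus IPC_TRI) minus (ISCH minus CTL), the log2 differences were 2.46 at Vdac1 AF048828_at, 1.37 at AF048828_g_at, 0.80 at Slc25a4, 0.89 at Slc25a5, 1.81 at Ckmt2 X59736mRNA_at and 0.645 at X59736mRNA_g_at. For (APC minus APC_TRI) minus (ISCH minus CTL), they were 1.79 at Vdac1 AF048828_at, 1.66 at Ckmt2 X59736mRNA_at and 0.69 at X59736mRNA_g_at. These contrasts were added after the data were seen. The causes of these differences were not tested.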

How the results depend on the processing

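Counts of member probe sets called are out of 9. In ISCH against CTL (4), the count was 2 as deposited, with median centring and with upper quartile centring, and 0 with the spike signal or the share of the brightest 1% as covariate. In IPC_TRI against CTL (6), it was 3 with only the groups of the contrast, 3 with the beta-actin covariate and 1 with the brightest 1% covariate, which also left 1 of 4 in APC_TRI against CTL. Array weights gave 2 in IPC against ISCH (0) and 4 in APC against APC_TRI (2), where leaving out IPC_TRI 5 and ISCH 1 also gave 4. In IPC against IPC_TRI (6), the beta-actin and the brightest 1% covariate each left 2. Of the contrasts of differences, that with IPC (6) gave 1 with the spike covariate and 0 with the brightest 1% covariate. That with APC (3) gave 5 with 60% of probe sets left out, 5 with median centring, 7 with only the groups of the contrast, 1 with the spike or the brightest 1% covariate, 7 with array weights and 5 without IPC_TRI 5 and ISCH 1. The test among all groups (7) gave 4 with cyclic loess and 2 with the brightest 1% covariate. With single arrays left out, counts ranged from 1 to 4 in ISCH, 5 to 7 in IPC_TRI and 2 to 4 in APC_TRI against CTL, 0 to 1 in IPC against ISCH, 5 to 6 in IPC against IPC_TRI, 2 to 3 in APC against APC_TRI, 6 to 6 and 3 to 4 for the contrasts of differences, and 5 to 9 among all groups. The causes of these changes were not tested.

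Among changes called after quantile normalization, signs turned for Slc25a4 in the IPC contrast of differences (-0.17 as deposited, -0.12 with upper quartile centring). They turned too for Myh6 in ISCH (0.0822 and 0.0870 under those scalings) and in IPC_TRI (0.0942 and 0.0808). For Atp2a2 in ISCH they turned as well (0.35 as deposited, 0.26 with median centring, 0.35 with upper quartile centring and 0.10 with cyclic loess). Signs of some changes without a call also turned, among them those of Slc25a4 and Ckm in ISCH given above. Over all probe sets, the alternatives that did not leave out single arrays gave 157 to 933 calls in ISCH (460), 152 to 925 in IPC_TRI (869), 233 to 1065 in APC_TRI (453), 161 to 398 in IPC (204) and 167 to 383 in APC (192) against CTL, and 0 to 267 in IPC (9) and 0 to 203 in APC (14) against ISCH. They gave 255 to 1336 between IPC and IPC_TRI (1228), 614 to 1518 between APC and APC_TRI (928), 0 to 93 between the triggers (23), 6 to 910 and 11 to 990 for the contrasts of differences with IPC (714) and APC (431), and 749 to 2086 among all groups (1658). With single arrays left out, these counts were 0 to 89 in IPC and 1 to 33 in APC against ISCH, 567 to 1077 in IPC_TRI, 281 to 476 in APC_TRI and 316 to 453 in ISCH against CTL, and 8 to 89 between the triggers.

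Deviations of the 75 same-numbered pairs of arrays correlated at -0.15 to 0.21 (median 0.0061, against -0.0012 for other pairs). Of 30 arrays, 10 correlated best with an array of their own number, a count that was not set against chance. Whether the replicate numbers pair arrays was therefore not settled. With the replicate block, counts of members called stayed the same in the contrasts, and the test among all groups gave 6.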
